A study of Mus musculus with 8 samples.

Results

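The miR-23, miR-24 and miR-27 microRNAs (miRNAs) were followed in exosomes from mouse amniotic fluid, where exosomes are small vesicles shed by cells. The set held 8 mature miRNAs, chosen by name from the 1881 miRNAs on the array: mmu-miR-23a-3p, mmu-miR-27a-3p, mmu-miR-27a-5p and mmu-miR-24-2-5p of the miR-23a cluster, mmu-miR-23b-3p, mmu-miR-27b-3p and mmu-miR-24-1-5p of the miR-23b cluster, and mmu-miR-24-3p, which both clusters encode (the prefix for mouse is left out below). The set was selected on earlier results of the same comparison, the signals on these 8 arrays, so the group difference of its members is described below and is not offered as a test. The series holds 4 arrays of amniotic fluid exosomes from mice with premature birth after an injection of lipopolysaccharide (LPS, the endotoxin of Gram-negative bacteria, used to provoke inflammation) and 4 arrays from cesarean sections, which serve as the control.

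The LPS mice were injected intraperitoneally with 100 μg/kg on day 14 and delivered about 48 h later. For the cesarean mice the labels name no treatment. All samples carry day 17 as their stage, which does not match day 14 plus 48 h, so it is uncertain whether both groups had one gestational age. They give no strain or genotype, and they do not say whether the arrays of a group came from separate mice or whether fluid was pooled, so all spreads below are between samples that may be technical replicates. The 8 arrays share 1 slide, and each group fills a row of it, so slide row and group cannot be told apart. Replicate numbers only tell the arrays of a group apart and pair no samples. Only miRNAs were measured, so the vesicles could not be checked against their protein markers.

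miR-23, miR-27 and miR-24 are encoded next to each other in paralogous clusters that vertebrates carry at separate loci, and each cluster is processed from 1 primary transcript. Their target choice rests mainly on the seed, bases 2 to 8 of the mature miRNA. The clusters are known from endothelium, where miR-23 and miR-27 promote vessel sprouting and miR-24 restrains it, and from immune cells, where miR-23b represses inflammatory signalling and the miR-23a cluster restrains B cell development. miR-23 also represses glutaminase, and miR-27 represses the adipocyte regulator Pparg.

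The miR-23a cluster spans 404 bases on the plus strand of chromosome 8 (GRCm38.p6), with Mir23a at 84208518-84208592, Mir27a at 84208672-84208758 and Mir24-2 at 84208815-84208921. No gene of the RefSeq table overlapped Mir23a or Mir27a, and Mir24-2 overlapped Mir3074-2. The miR-23b cluster spans 792 bases on the plus strand of chromosome 13, with Mir23b at 63300484-63300557, Mir27b at 63300712-63300784 and Mir24-1 at 63301208-63301275. All 3 lie inside the protein-coding gene Aopep, which encodes an aminopeptidase, and Mir24-1 also overlapped Mir3074-1. Mature sequences were found for 7 of the 8 members in the RefSeq table of the same build, all but miR-23b-3p. Those of the 3p members are shown 5′ to 3′ with the seed in capitals, because the seed groups them:
miR-23a-3p: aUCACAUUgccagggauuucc
miR-27a-3p: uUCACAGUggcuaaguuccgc
miR-27b-3p: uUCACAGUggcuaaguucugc
miR-24-3p: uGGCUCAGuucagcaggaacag

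miR-27a-3p and miR-27b-3p had the same seed and differed by the single substitution C19U, counted from the 5′ end with miR-27a-3p first. The seeds of miR-23a-3p and miR-27a-3p differed only by U7G. Mir24-2 and Mir24-1 gave the same miR-24-3p, so its signal could not be assigned to a cluster. Among the 1608 miRNAs of the array with a RefSeq sequence, miR-27a-3p and miR-27b-3p shared their seed only with each other. miR-23a-3p shared its seed with none of those. miR-23b-3p had no sequence there, so its seed was not compared with that of miR-23a-3p. The miR-24-3p seed was shared with miR-5124b, miR-6369, miR-6410 and miR-6413, none of which was above background on any of the 8 arrays.

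Probes of equal length for the paralogues differ by a single base. The deposited probes of 17 bases are shown 5′ to 3′, with the base that differs between paralogues in capitals, because the ratios below rest on it:
miR-23a-3p probe: ggAaatccctggcaatg
miR-23b-3p probe: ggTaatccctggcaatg
miR-27a-3p probe: gcGgaacttagccactg
miR-27b-3p probe: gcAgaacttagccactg

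Counted from the 5′ end of the probe with the miR-23a-3p or miR-27a-3p probe first, the differences were A3T for miR-23 and G3A for miR-27. How far the probes of one paralogue bind the other was not tested. Each miRNA is given by its brightest probe, as the log2 of the background-subtracted signal scaled between arrays, with a floor of 3.75 set by the dimmest signals above background. For miR-23a-3p the brightest probe has 18 bases and is not the probe shown. The miR-23 ratio by brightest probes therefore sets probes of unlike length against each other. Brightness differs between probes, so no probe's level is set against another's.

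The 5 members of the 3p arm were above background on all 8 arrays. miR-24-2-5p, miR-24-1-5p and miR-27a-5p were at the floor on all 8, not well above background with any probe. The other products of the loci gave little more: miR-23b-5p, miR-27b-5p, miR-3074-5p, miR-3074-1-3p and miR-3074-2-3p were above background on 0 of 8 arrays, and 1 of the 4 probes of miR-23a-5p was above it on 1 array. The 3p members were therefore the only ones with values to compare. Their probes were averaged over 13 to 15 spots an array. The standard error over the spots was at most 0.04 on the log2 scale, below each member's SD between the arrays of a group.

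miR-23b-3p was higher in LPS exosomes than in cesarean exosomes on every array, while miR-23a-3p, miR-24-3p, miR-27a-3p and miR-27b-3p overlapped between the groups. In the fit over all 470 miRNAs tested (limma, Benjamini-Hochberg adjusted p under 0.05), 1 of the 5 members tested passed, miR-23b-3p. Of all miRNAs tested, 4.89% passed, with 2.55% higher and 2.34% lower. The members were chosen with this contrast known, so nothing is read from their count. The median difference of LPS minus cesarean was 0.23 over the 5 members and -0.06 over all miRNAs tested, on the log2 scale.

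**Figure D1:**
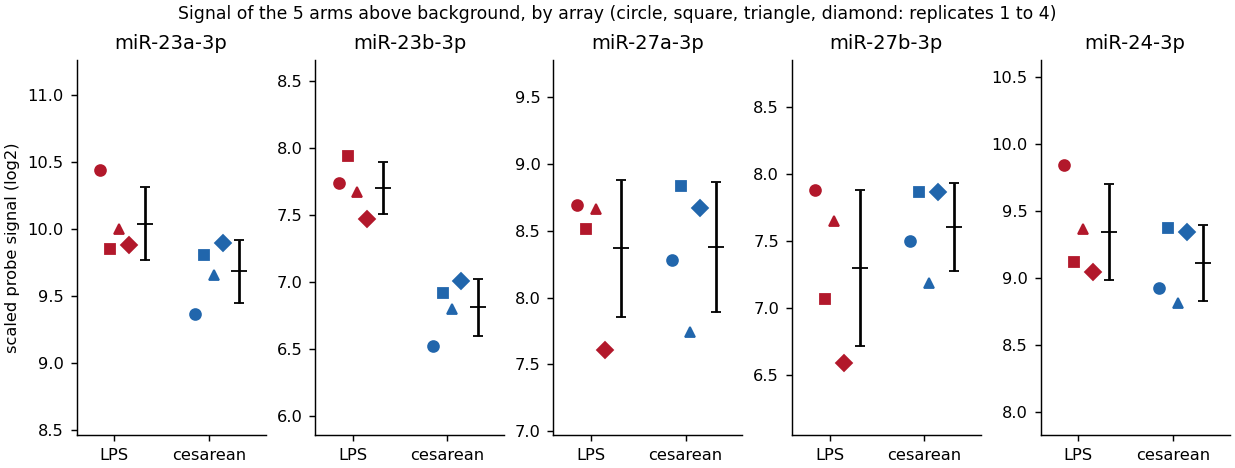
Scaled log2 signal (y axis) of miR-23a-3p, miR-23b-3p, miR-27a-3p, miR-27b-3p and miR-24-3p in the LPS group (left, red) and the cesarean group (right, blue), 1 point per array, with the mean and SD of the 4 arrays as a black bar. All panels span the same number of log2 units. The miR-23b-3p points lie at 7.47 to 7.94 in the LPS group and at 6.52 to 7.01 in the cesarean group, and the other 4 miRNAs overlap.

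miR-23b-3p had 7.74, 7.94, 7.67 and 7.47 on LPS arrays 1 to 4, against 6.52, 6.92, 6.80 and 7.01 on cesarean arrays 1 to 4. The lowest LPS array lay above the highest cesarean array. The groups averaged 7.70 ± 0.19 (LPS) and 6.81 ± 0.22 (cesarean; SD, n = 4 each), a difference of 0.89 ± 0.22 (SE from limma) on the log2 scale, or 1.86-fold. Of all miRNAs tested, 17.0% had groups that did not overlap, 9.79% with LPS higher. The second, dimmer probe of miR-23b-3p gave a difference of 0.77.

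The separation of miR-23b-3p depended on scaling between arrays. Before scaling, its signal was 173.5, 225.2, 295.5 and 133.8 on the LPS arrays and 146.2, 151.0, 85.0 and 104.1 on the cesarean arrays, and the groups overlapped. Without scaling the log2 difference was 0.75, with the median of all miRNAs tested at -0.20. The call of miR-23b-3p was lost in 14 of 23 alternative settings, among them the slide column as a block, no filter on dim miRNAs, and leaving out any 1 cesarean array, LPS 2 or LPS 3. Its difference stayed between 0.66 and 0.99 over the 23 settings. In bulk samples such as these, a change in the number of vesicles from one cell type and a change in the amount of a miRNA per vesicle cannot be told apart.

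miR-23a-3p, the paralogue on chromosome 8, had 10.44, 9.85, 10.00 and 9.88 on the LPS arrays, against 9.37, 9.81, 9.66 and 9.90 on the cesarean arrays. LPS 1 was the highest array and cesarean 1 the lowest, and the other arrays of both groups lay close together. The means were 10.04 ± 0.27 in LPS and 9.69 ± 0.23 in cesarean exosomes (SD, n = 4 each), with a difference of 0.36 ± 0.24 (SE) that did not pass.

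miR-24-3p, the product of both loci, had 9.84, 9.12, 9.36 and 9.04 on the LPS arrays, against 8.92, 9.37, 8.81 and 9.34 on the cesarean arrays. LPS 1 stood highest and the other LPS arrays lay inside the cesarean range. Its difference was 0.23 ± 0.26 (SE) and did not pass.

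miR-27a-3p had 8.69, 8.51, 8.66 and 7.61 on the LPS arrays, against 8.28, 8.83, 7.74 and 8.67 on the cesarean arrays. LPS 4 lay well below the other LPS arrays, and cesarean 3 lay lowest in its own group. The difference was -0.01 ± 0.33 (SE).

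miR-27b-3p had 7.88, 7.07, 7.65 and 6.59 on the LPS arrays, against 7.50, 7.87, 7.19 and 7.87 on the cesarean arrays. LPS 4 was again the lowest array, and the groups overlapped over most of their range. The means were 7.30 ± 0.58 in LPS and 7.61 ± 0.33 in cesarean exosomes (SD, n = 4 each), a difference of -0.31 ± 0.32 (SE) that did not pass. In both groups, miR-27a-3p and miR-27b-3p spread more between the arrays than miR-23b-3p did. Their SDs on the log2 scale were 0.51 and 0.58 in the LPS group, against 0.19 for miR-23b-3p. In the cesarean group they were 0.49 and 0.33, against 0.22.

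**Figure D2:**
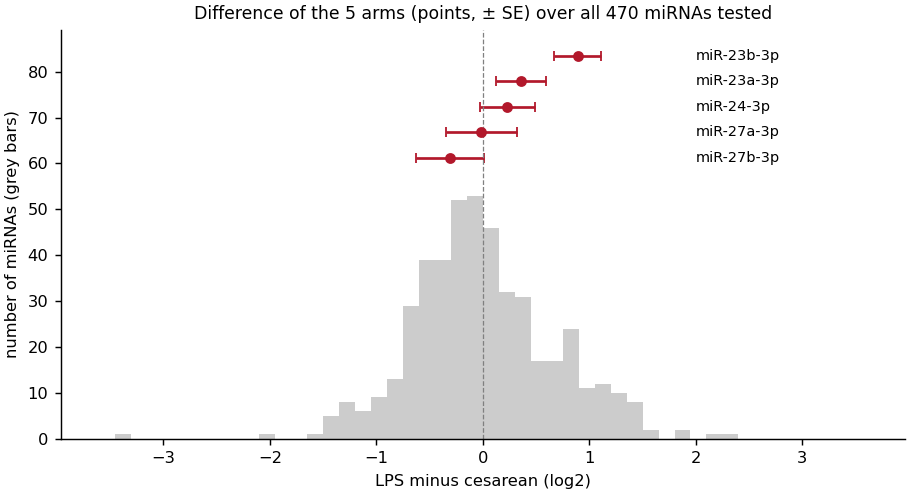
Difference of LPS minus cesarean in log2 units (x axis) for the 5 members (red points, with the SE from limma as bars), above the distribution of the same difference over all 470 miRNAs tested (grey bars, y axis: number of miRNAs). miR-23b-3p lies at 0.89 and the other 4 members between -0.31 and 0.36, in the bulk of the distribution.

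The ratio of paralogues on the same array does not depend on a common factor for that array. It sets the probe signal for the chromosome 13 product against that for the chromosome 8 product. Binding of each probe to the other paralogue was not tested, so either signal may hold some of both products. Ratios are given on the log2 scale relative to the cesarean mean. The ratio of miR-23b-3p to miR-23a-3p was 0.17, 0.96, 0.55 and 0.47 on LPS arrays 1 to 4, against 0.02, -0.01, 0.01 and -0.02 on cesarean arrays 1 to 4. All 4 LPS arrays lay above all 4 cesarean arrays, LPS 1 by the least and LPS 2 by the most. The LPS arrays averaged 0.54 ± 0.33 (SD, n = 4), or 1.45-fold, around a cesarean SD of 0.02 (n = 4). That SD lies below the largest standard error over the spots of either probe (0.035 for miR-23a-3p, 0.028 for miR-23b-3p). It is therefore not read as steadiness of the miRNAs themselves. Without LPS 2 the change was 0.40, and without LPS 1 it was 0.66.

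Among all 56280 pairs of the 336 miRNAs above background on all arrays, 16.4% had ratios that did not overlap between the groups. The direction of the mean change for miR-23 held with every probe pair compared, while the separation did not. With the 17-base probes shown above the change was 0.58, and the groups did not overlap. With the dimmer probe of each miRNA it was 0.45, with LPS 1 at -0.01, inside the cesarean range.

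For miR-27 the mean change of the probe signal ratio, chromosome 13 over chromosome 8, had the opposite sign. The ratio of miR-27b-3p to miR-27a-3p was -0.04, -0.67, -0.24 and -0.24 on the LPS arrays, against -0.01, -0.18, 0.22 and -0.03 on the cesarean arrays. LPS 1 lay inside the cesarean range, so the groups overlapped. The change was -0.30 with the 17-base probes and -0.37 with the 16-base probes, and -0.17 without LPS 2. LPS 2 was the array with the highest miR-23 ratio and, with the 17-base probes, the lowest miR-27 ratio.

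**Figure D3:**
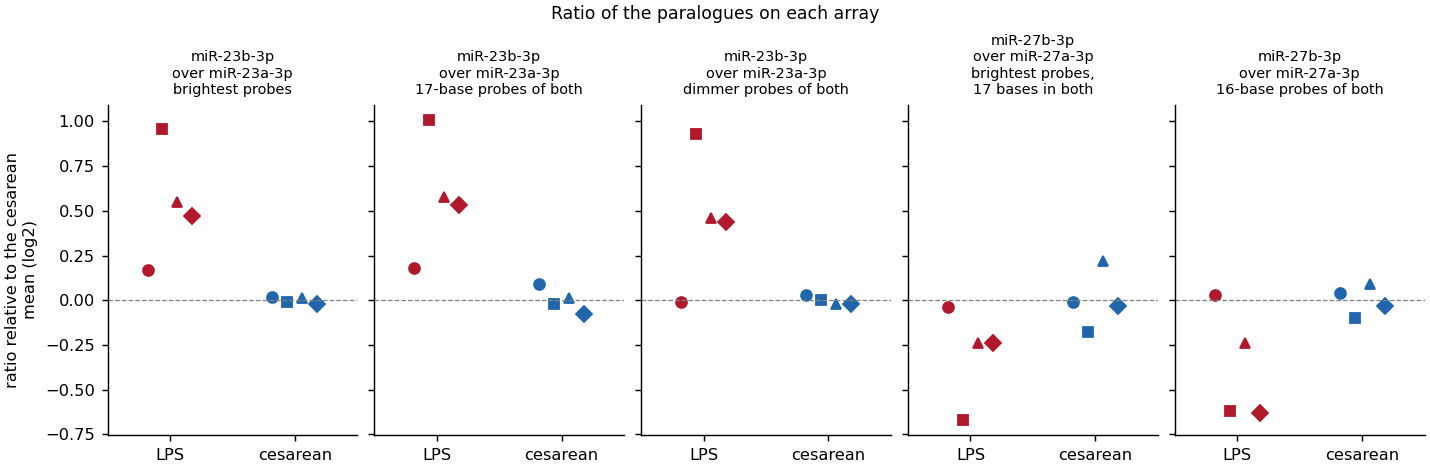
Log2 ratio of the chromosome 13 paralogue to the chromosome 8 paralogue on each array, relative to the cesarean mean (y axis, dashed line at 0), in the LPS group (left, red) and the cesarean group (right, blue), with circle, square, triangle and diamond for replicates 1 to 4. The LPS points of miR-23 lie between -0.01 and 1.01 over the 3 probe pairs and those of miR-27 between -0.67 and 0.03 over both probe pairs.

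The probe signals for the products of a cluster did not keep a constant ratio. Within the miR-23b cluster, the ratio of miR-23b-3p to miR-27b-3p was 0.66, 1.67, 0.82 and 1.68 on the LPS arrays, against -0.19, -0.16, 0.41 and -0.06 on the cesarean arrays. Every LPS array lay above every cesarean array, by 1.20 on average (2.30-fold), and the share of all pairs whose ratio separated the groups was again 16.4%. Within the miR-23a cluster, the ratio of miR-23a-3p to miR-27a-3p differed by 0.37 and overlapped, with cesarean 3 at 0.62 and LPS 3 at 0.03.

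Averaged by cluster, the differences of miR-23b-3p and miR-27b-3p, of opposite sign, offset each other in part. The mean of miR-23a-3p and miR-27a-3p differed by 0.17 on the log2 scale between LPS and cesarean exosomes, and the mean of miR-23b-3p and miR-27b-3p by 0.29. The miR-23b cluster minus the miR-23a cluster was 0.01, 0.09, 0.09 and 0.05 on the LPS arrays, against -0.05, -0.16, 0.06 and -0.08 on the cesarean arrays. These values overlapped because cesarean 3 lay inside the LPS range. The change was 0.12, and it turned to -0.05 with quantile normalization.

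**Figure D4:**
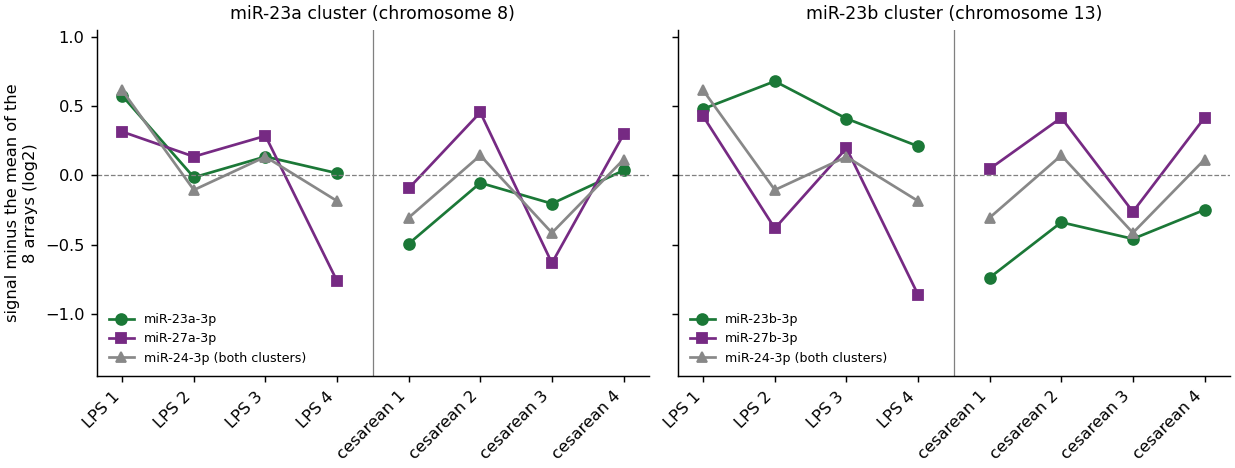
Scaled log2 signal of each 3p member minus its own mean over the 8 arrays (y axis), for the arrays on the x axis, LPS left of cesarean. The left panel holds the miR-23a cluster and the right panel the miR-23b cluster, with miR-24-3p, made by both, in grey. miR-23b-3p lies above 0 on the 4 LPS arrays and below 0 on the 4 cesarean arrays, and miR-27a-3p and miR-27b-3p are lowest on LPS 4.

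How closely the members moved together was measured by the SD of the log2 ratio of a pair over the arrays, where 0 means the same ratio on every array. Over the 8 arrays, miR-23a-3p and miR-24-3p had the steadiest ratio of the 10 member pairs, with an SD of 0.16 against a median of 0.71 over all 56280 pairs, of which 131 were steadier. The paralogues miR-27a-3p and miR-27b-3p followed at 0.26. The neighbours miR-23b-3p and miR-27b-3p had the least steady ratio, at 0.76. These are descriptions: the arrays share their slide and their scaling, and the SD over all arrays includes the group difference itself.

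Within the groups the order of the pairs changed. The ratio of miR-23a-3p to miR-23b-3p had an SD of 0.33 over the 4 LPS arrays and of 0.02 over the 4 cesarean arrays, and of all pairs only 6 were steadier over the cesarean arrays. That cesarean SD rose to 0.07 with the 17-base probes, quantile normalization or the authors' deposited values, and to 0.107 with normexp background correction. At 0.02 it lies below the largest spot standard error of either probe (0.035 and 0.028), so its rank among the pairs is not read as likeness. The medians over all pairs were 0.65 in the LPS group and 0.49 in the cesarean group. The pair of miR-27b-3p and miR-24-3p likewise had an SD of 0.31 over the LPS arrays and 0.09 over the cesarean arrays. In contrast, miR-23a-3p and miR-24-3p had 0.10 in the LPS group and 0.19 in the cesarean group. With 4 arrays a group, whether these spreads differ was not tested.

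**Figure D5:**
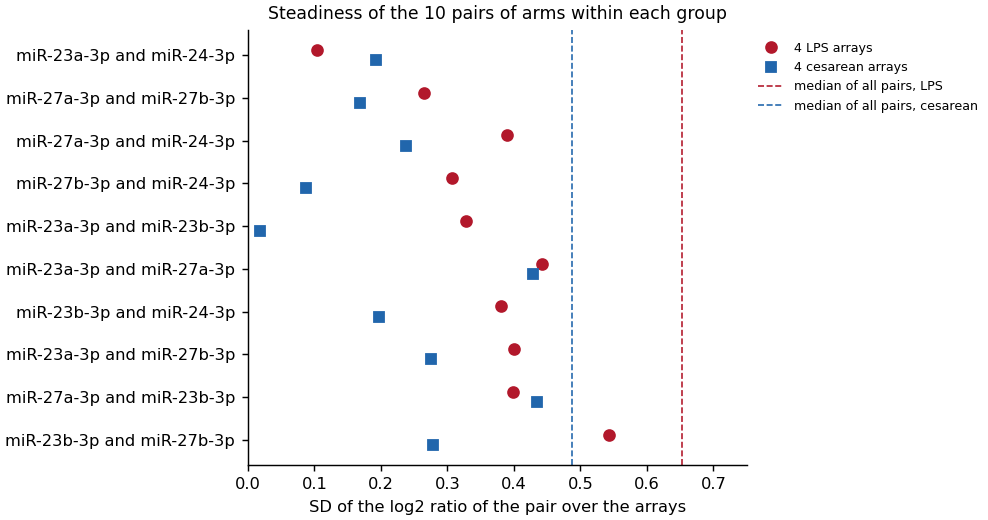
SD of the log2 ratio of each of the 10 pairs of 3p members (x axis) over the 4 LPS arrays (red circles) and the 4 cesarean arrays (blue squares), with the median over all 56280 pairs in each group as a dashed line. All 10 pairs lie below the median of their group, and the pair of miR-23a-3p and miR-23b-3p lies lowest among the cesarean values.

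By the same measure, the miRNAs most like miR-23b-3p over the 8 arrays were miR-26a-5p (SD 0.18), miR-429-3p (0.19), miR-431-5p (0.24), miR-200b-3p (0.26) and miR-210-3p (0.28). Their differences of LPS minus cesarean were 0.59 to 1.08 on the log2 scale, near that of miR-23b-3p, as the choice by steady ratio over both groups fixes. The miRNAs most like miR-23a-3p were miR-24-3p (0.16), miR-148a-3p (0.17), miR-365-3p (0.19), miR-26b-5p (0.19) and miR-223-3p (0.20). Their differences were 0.09 to 0.50, near that of miR-23a-3p for the same reason. miR-24-3p, made by both clusters, was the only member among these 10 profiles.

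The only other miRNAs with probes within 50 kb of a member's probe were those of the miR-181c and miR-181d hairpins, 29.6 to 29.8 kb from miR-23a-3p on chromosome 8 (mm9, per the probe positions in the files). miR-181d-5p, of a family known for setting T cell receptor sensitivity, had 5.20, 4.36, 5.52 and 4.70 on the LPS arrays, against 6.95, 6.28, 5.97 and 6.14 on the cesarean arrays. It fell in LPS exosomes by 1.39 ± 0.32 (SE) on the log2 scale (limma adjusted p = 0.0378), with no overlap between the groups. Its call was lost in 15 of 23 alternative settings, all with a lower LPS mean. The lower LPS signal was not particular to this neighbour. Of the same family, with no probe within 50 kb, miR-181b-5p differed by -1.63 ± 0.26 (SE) and passed. miR-181a-5p differed by -0.96 ± 0.25 (SE) and did not pass. The groups did not overlap for either. miR-181c-5p was above background on 1 LPS and 2 cesarean arrays, and miR-181c-3p and miR-181d-3p on none. In the miR-23a cluster the differences were 0.36 for miR-23a-3p and -0.01 for miR-27a-3p, and how far miR-181d-5p differed from them was not tested.

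As the clusters are known from endothelium, 12 miRNAs of endothelium and angiogenesis were read beside them. The list was chosen with earlier results of these data known, so nothing is read from its counts. Of these, 10 were tested and 0 passed in limma, with 3 at an unadjusted p under 0.05, where 25.1% of all miRNAs tested lay. The median difference was -0.09 on the log2 scale, against -0.06 over all miRNAs tested. The largest differences belonged to miR-18a-5p of the miR-17-92 cluster (-1.17 ± 0.41 SE), the hypoxia-induced miR-210-3p (0.81 ± 0.27), miR-222-3p, which restrains vessel growth (0.78 ± 0.27), and miR-17-5p (-0.72 ± 0.33). The size for miR-222-3p rests on the floor: its cesarean arrays lay at 3.75 to 4.07, and it was above background on 3 arrays of each group. miR-126a-3p, the defining endothelial miRNA, differed by -0.09 ± 0.30. The summed signal of the list ran from 10.58 to 10.96 on the LPS arrays and from 10.42 to 11.47 on the cesarean arrays, in log2 units, so the groups overlapped.

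Markers of other cell types were read beside the members, against 4.89% of all miRNAs tested that passed in either direction and 2.55% that passed with LPS higher. These lists too were chosen with earlier results of these data known. Their counts and p-values are therefore descriptions, and nothing is read from the counts. All 5 epithelial miRNAs of the miR-200 family had a higher mean in LPS exosomes, and 3 of them passed. In limma, miR-200c-3p differed by 1.42 ± 0.23 (SE, adjusted p = 0.0108) and miR-200a-3p by 1.23 ± 0.30 (adjusted p = 0.0449). miR-200b-3p differed by 1.08 ± 0.25 (limma adjusted p = 0.041). miR-141-3p and miR-429-3p did not pass, at 1.50 ± 0.39 and 0.91 ± 0.23, though their groups did not overlap either. The summed signal of the 5 epithelial miRNAs was 10.49 to 11.13 in the LPS group and 9.51 to 9.94 in the cesarean group. The groups did not overlap, as for miR-23b-3p and for 9.79% of all miRNAs tested, LPS higher. Of the 3 erythroid miRNAs, miR-144-3p passed in limma, being above background on 4 LPS and 0 cesarean arrays. It entered the fit only through the LPS group, and its cesarean values were all the floor, with an SD of 0. Its call and its size (2.20-fold) therefore rest on the floor. The log2 difference ran from 0.14 to 2.34 over the alternative settings. miR-451a and miR-486a-5p differed by 0.99 ± 0.31 and 0.83 ± 0.35 without passing, and the summed erythroid signal overlapped (13.78 to 14.92 in LPS, 13.08 to 13.94 in cesarean exosomes). The sum is taken before the log2, so miR-451a nearly sets it alone (13.76 to 14.90 in LPS, 13.06 to 13.92 in cesarean exosomes).

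Of 5 leukocyte miRNAs, 3 were tested and miR-142a-3p, common to blood cells, rose by 1.23 ± 0.26 (SE; limma adjusted p = 0.0325). Cesarean 3 was at the floor and the other cesarean arrays were at most 4.26, so the size rests on the floor, and it ran from 0.31 to 1.51 over the alternative settings. The myeloid miR-223-3p differed by 0.09 ± 0.25 and miR-342-3p by -0.45 ± 0.30. The summed leukocyte signal, in which miR-223-3p weighs most, overlapped, at 9.30 to 9.82 in the LPS group and 9.42 to 9.80 in the cesarean group. miR-142a-5p was above background on 1 LPS and 0 cesarean arrays, and miR-150-5p on 1 LPS and 2 cesarean arrays. Of the calls named here, miR-200c-3p passed in 18 of 23 alternative settings, miR-200b-3p in 11 and miR-200a-3p in 10, while miR-144-3p passed in 13 and miR-142a-3p in 8 of 22. The part of these markers in the difference of miR-23b-3p was not tested.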

How the data were processed

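RNA from 8 samples was read on single-colour Agilent mouse miRNA arrays. Spot intensity values were deposited as scanner files, background-subtracted and not normalized between arrays, per the file headers (Agilent Feature Extraction 10.7.1.1; the submitters' processing notes name 9.1). The labels' protocols give 0.5 μg of RNA labelled as cRNA; the labelling of the miRNAs is not described there. The authors also deposited log2 values, normalized by an unstated method, with column medians of 2.14 to 2.15. Each column correlated best with its own scanner file (r from 0.958 to 0.964 over 336 miRNAs), and these values served as an alternative.

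Control spots and spots marked as outliers or non-uniform were left out (2.99% to 3.48% of 56430 miRNA spots an array), and none was saturated. A probe was taken as above background where a share of 0.5 or more of its spots was. Probe means were scaled by the 75th percentile over the 618 probes above background on all arrays, raised to a floor of 13.5 and put on the log2 scale. The brightest probe stood for each miRNA, and the 470 miRNAs above background on 3 or 4 arrays of either group were tested (limma 3.58.1, R 4.3.3: lmFit and eBayes, two-sided, Benjamini-Hochberg, threshold 0.05). By their brightest probe, 403 to 506 miRNAs were detected on an LPS array and 412 to 534 on a cesarean array. The number of arrays limits the precision.

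Named are the 8 members, other products of their loci, miRNAs within 50 kb, miRNAs sharing a 3p seed, the 5 miRNAs most like miR-23b-3p and miR-23a-3p, and list members above background, with values for up to 4 by size of difference. miR-126a-3p, miR-429-3p, miR-181a-5p and miR-181b-5p are given beside them. Members and lists were chosen with earlier results of these data known. The probe pairs other than the brightest were chosen after seeing the data. Python 3.11.15, numpy 2.4.6, pandas 2.3.3, matplotlib 3.10.9 and the R package data.table (1.17.8) were used to read tables and draw plots.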

Additional observations from a re-analysis of the deposited data

Results flagged for a closer look

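miR-27a-3p in the LPS group had 1 array far from the others. LPS 4 stood at 7.61 on the log2 scale, while the other 3 LPS arrays stood at 8.51 to 8.69, and the gap took a share of 0.837 of the group's range, above Dixon's 95% critical value for 4 samples. The check was run on 14 groups of 4 arrays (the 5 members and both paralogue ratios in each group), and chance marks about 1 in 20 such groups. miR-27b-3p was also lowest on LPS 4, at 6.59.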

How the results depend on the processing

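Of 23 alternatives, 8 leave out 1 array. The count of miRNAs passing, 23 as reported, was 14 with the percentile over all probes, 1 without scaling, 1 with spike-in scaling, 37 with quantile normalization, 15 with normexp background correction, 8 with the scanner software's total per miRNA, 2 without the filter, 15 with the filter on all arrays, and 3 to 79 with 1 array left out (79 without LPS 1, 4 without LPS 2, 7 without LPS 3, and 5, 4, 3 and 9 without cesarean 1, 2, 3 and 4). The labels pair no samples; with the slide column as a replicate block, 1 miRNA and 0 members passed. The number of members passing was 0, in place of 1, in 14 alternatives: the percentile over all probes, no scaling, spike-in scaling, the total per miRNA, the lower floor, no filter, the filter on all arrays, the replicate block, and without LPS 2, LPS 3 or any cesarean array (range 0 to 1 over the arrays left out); limma then gave 0 or 1 member at an unadjusted p under 0.05. miR-23b-3p differed by 0.66 to 0.99, lowest with normexp, and its groups did not overlap in 21 of 23 alternatives, the exceptions being no scaling and spike-in scaling. The miR-23 ratio changed by 0.34 to 0.66 and did not overlap in 21 of 23, the exceptions being quantile normalization and normexp. The miR-27 ratio changed by -0.46 to -0.17 and overlapped in all but 2, without LPS 1 and without cesarean 2. miR-23a-3p (0.21 to 0.52) and miR-24-3p (0.06 to 0.33) stayed above 0 and miR-27b-3p (-0.50 to -0.08) below it, while miR-27a-3p ran from -0.23 to 0.24. The cluster contrast was -0.054 with quantile normalization, against 0.12 as reported. The SD of the miR-23 ratio was 0.36 over 8 arrays and 0.0188 within the cesarean arrays, where fewer arrays and 1 group enter. The cause of the other changes was not tested.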
